A study of Mus musculus with 6 samples.

Results

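The genes described here are 10 members of the bone morphogenetic protein (BMP) pathway, taken by symbol from the deposited table of 55487 genes. They are the ligands Bmp2, Bmp4, Bmp6 and Bmp7, the secreted antagonists Nog and Grem1, the type I receptor gene Bmpr1a, and the target genes Id1, Id2 and Id3. All 10 had a row in the table, and all 10 were among the 18259 genes that passed the filter on low counts and were tested. The members were listed by role, with earlier results of these data known.

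The libraries were made from polyadenylated RNA of whole dorsal mouse skin on day 2, 3 of them from skin given DPCP and 3 from control skin. DPCP, diphenylcyclopropenone, is a contact sensitizer that provokes an allergic skin reaction and is used in the clinic to treat alopecia areata. The study, by its title, concerned the regrowth of hair that follows contact hypersensitivity and the part that macrophages play in it. The labels give no strain, sex, age, genotype, DPCP dose or hair cycle stage. They are also silent on any vehicle used on control skin and on how many animals gave the libraries. A p-value here thus sets the difference between groups only against the spread of these libraries, which may be technical.

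BMP ligands are secreted dimers of the transforming growth factor beta superfamily. They bring type I and type II receptors together, and the active type I receptor phosphorylates Smad1, Smad5 and Smad9, which enter the nucleus with Smad4 and switch on targets that include the Id genes. Noggin and gremlin bind ligands outside the cell and keep them from their receptors. In the resting hair follicle, BMP signals from the follicle, the dermal papilla, the dermis and dermal fat are known to hold stem cells quiescent, and release from them accompanies entry into growth.

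Library totals ran from 31609336 to 38846787 counts in DPCP and from 28346992 to 33468828 in control skin, and 3 counts, the limit that a count of 0 allows, equalled 0.0772 to 0.106 CPM (counts scaled to a common library total), for counting error only. The first principal component of log2 CPM held 77.1% of the variance, with the DPCP libraries at 49.2, 73.8 and 71.9 and the control libraries between -65.3 and -64.5. A transcript annotated as ribosomal RNA (CT010467.1) took 2.46% of the counts in DPCP replicate 2, against at most 0.489% in the other 5 libraries. Of the markers of the growing hair shaft and matrix, the keratin genes were near 0. The genes Krt31, Krt33a, Krt34, Krt35 and Krt86 were each at no more than 0.219 CPM in DPCP libraries and 0.136 CPM in control libraries, and Krt34 had no count in any library. Of the other markers on that list, Shh averaged 0.0215 CPM in DPCP and 0.0449 CPM in control skin, Hoxc13 averaged 8.01 CPM in DPCP and 6.46 CPM in control skin and was not called, and Padi3 was called higher, at 0.859 CPM in DPCP and 0.299 CPM in control skin (edgeR adjusted p = 0.0288). Whole skin holds many cell types besides the follicle, and in such bulk samples fewer cells of a type and less RNA per cell cannot be told apart.

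In DPCP skin, 3 of the 4 ligands were lower and the remaining one was higher. Bmp4 fell by 72.2%, Bmp2 by 56.1% and Bmp6 by 35.1%, while Bmp7 was 1.94-fold higher. Among the targets, Id1 was 2.66-fold higher and Id2 fell by 22.5%, and neither the antagonists nor Bmpr1a passed the test. A gene was called where its Benjamini-Hochberg adjusted p, over all 18259 genes, was under 0.05 in edgeR's quasi-likelihood test. In all, 2 of the 10 members were called higher, beside 22.8% of all genes tested, and 4 were called lower, beside 23.3%. The DPCP and control libraries did not overlap for 7 of the 10, beside 58.0% of all genes tested. The median log2 fold change of the members was -0.29, against -0.01 over all genes tested. The counts of calls depend in part on scaling, since Id2 lost its call with the relative log expression factors, while Nog and Bmpr1a were called lower with upper-quartile factors or library totals alone.

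**Figure D1:**
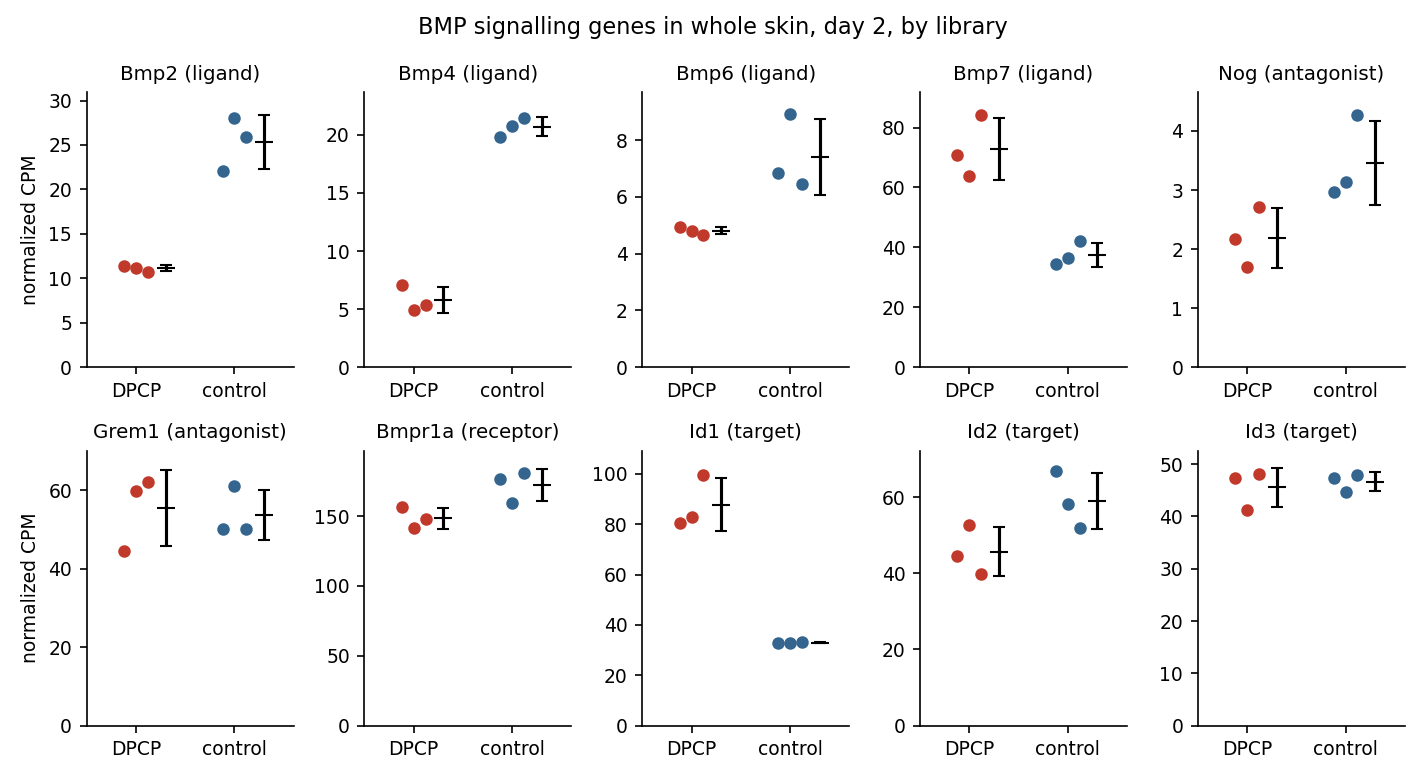
Normalized CPM of each of the 10 genes in the 3 DPCP libraries (red, left) and the 3 control libraries (blue, right) of whole skin. Bars give the mean and SD of 3 libraries, and each axis starts at 0. The DPCP libraries lie below the control libraries for Bmp2, Bmp4, Bmp6, Nog and Bmpr1a and above them for Bmp7 and Id1.

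Bmp4, a ligand made in the dermal papilla and dermis, had the largest change among the members. Its gene lies on chromosome 14 from 46383520 to 46390669, on the minus strand (GRCm38, as are all coordinates here). Bmp4 stood at 7.04, 4.90 and 5.35 normalized CPM in the DPCP libraries, against 19.9, 20.8 and 21.5 in the control libraries. Every DPCP library was thus below every control library, and the lowest control value lay far above the highest DPCP value. The means were 5.76 ± 1.13 CPM in DPCP and 20.7 ± 0.804 CPM in control skin (SD, n = 3 each), a log2 fold change of -1.84 ± 0.15 (SE, 95% interval -2.20 to -1.49, edgeR adjusted p = 5.5e-05). The gene shares 89 exon bases, 3.96% of its exon length, with Gm15217 on the opposite strand, which averaged no more than 0.0655 CPM in either group.

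Bmp2, which is known from dermal fat and from the follicle, lies on chromosome 2 from 133552159 to 133562885, on the plus strand. Its DPCP libraries held 11.4, 11.1 and 10.8 CPM, and its control libraries held 22.1, 28.03 and 25.8 CPM. The DPCP values were close together and all below the control values. Bmp2 had a log2 fold change of -1.19 ± 0.12 (95% interval -1.46 to -0.92, edgeR adjusted p = 0.000122). Bmp2 and Bmp4 both kept their calls in all 13 alternative analyses, with log2 fold changes of -1.27 to -1.10 for Bmp2 and -2.01 to -1.74 for Bmp4.

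Bmp6, a ligand known from follicle stem cells and their inner niche, was the least abundant of the 4. It lies on chromosome 13 from 38345107 to 38500302, on the plus strand. Its levels were 4.94, 4.81 and 4.67 CPM in DPCP and 6.84, 8.93 and 6.45 CPM in control skin. The groups did not overlap, but control replicate 2 stood above the other control libraries. The log2 fold change was -0.62 ± 0.17 (95% interval -1.002 to -0.244, edgeR adjusted p = 0.0150). Without control replicate 2 it was -0.46 and no longer called (edgeR adjusted p = 0.0565). Bmp6 shares 224 exon bases, 5.74% of its exon length, with Txndc5 on the opposite strand, which rose to 165.3 CPM in DPCP skin, against 107.3 CPM in control skin (log2 fold change 0.62, edgeR adjusted p = 0.00106). The counting command set no strand option, so reads of the overlap cannot be assigned.

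Bmp7, a ligand of the epidermis, follicle and dermal papilla, moved the other way. It lies on chromosome 2 from 172868012 to 172940321, on the minus strand. DPCP libraries held 70.7, 63.8 and 84.1 CPM, and control libraries held 34.3, 36.3 and 42.0 CPM. The lowest DPCP library stood above the highest control library. Its log2 fold change was 0.96 ± 0.12 (95% interval 0.67 to 1.24, edgeR adjusted p = 0.000476), and it ranged from 0.85 to 1.04 over the alternatives.

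Because genes differ in length, levels of different ligands were compared as CPM per kilobase of exon. On that scale Bmp7 and Bmp4 stood level in control skin, at 9.34 ± 0.988 and 9.21 ± 0.358, with overlapping libraries, whereas in DPCP skin Bmp7 stood at 18.1 ± 2.58 and Bmp4 at 2.56 ± 0.504 (SD, n = 3). The ratio of Bmp7 to Bmp4 was 5.61, 7.29 and 8.80 in the DPCP libraries and 0.966, 0.977 and 1.09 in the control libraries. Summed over the 4 ligands, the level was 25.1 ± 2.57 in DPCP skin, against 27.6 ± 1.95 in control skin. The library ranges of this sum overlapped, at 22.4 to 27.5 in DPCP and 25.3 to 28.9 in control skin. Bmp7 made up 69.8% to 76.0% of the sum in DPCP libraries and 31.8% to 36.1% in control libraries. Bmp4 made up 8.64% to 12.4% in DPCP and 32.5% to 34.9% in control libraries, and Bmp2 10.99% to 14.0% in DPCP and 24.5% to 27.7% in control libraries. These sums and shares are descriptions of the members and were not tested.

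**Figure D2:**
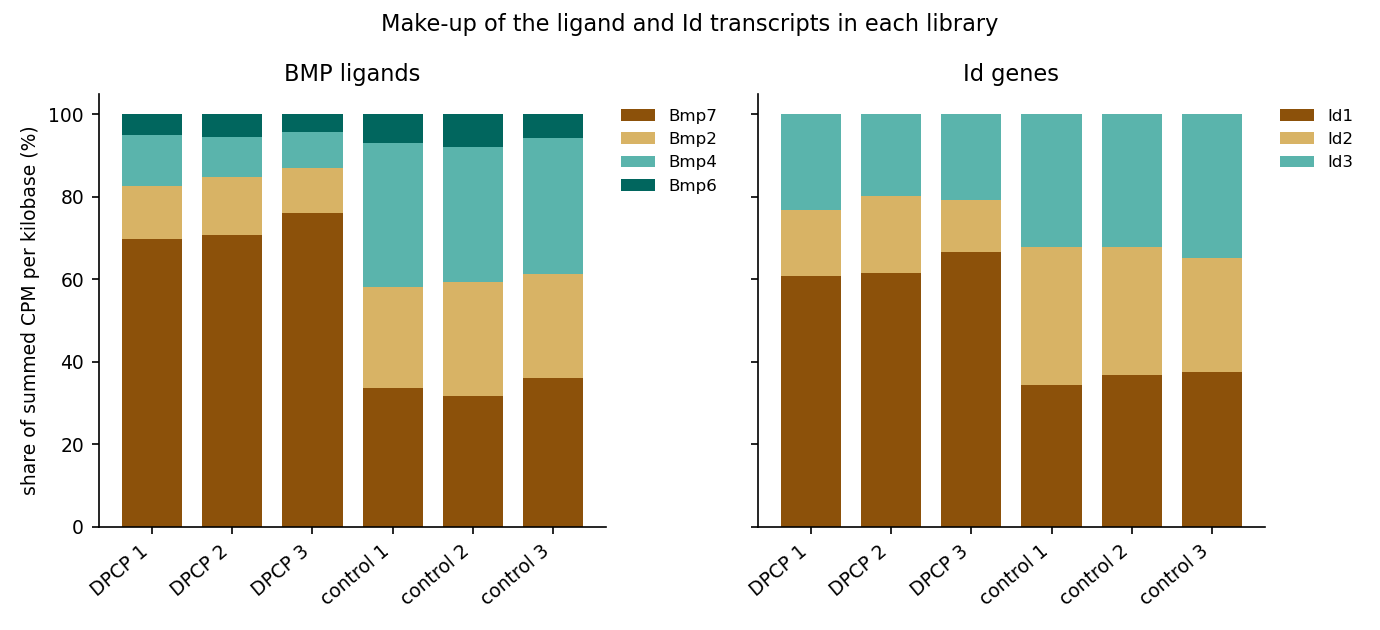
Share of each ligand in the summed CPM per kilobase of the 4 ligands (left panel) and of each Id gene in the sum of the 3 Id genes (right panel), one bar per library, with the DPCP libraries left of the control libraries. Bmp7 fills 69.8% to 76.0% of the ligand bar in DPCP and 31.8% to 36.1% in control libraries, and Id1 fills 60.8% to 66.6% of the Id bar in DPCP and 34.4% to 37.4% in control libraries.

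Neither antagonist was called. Nog, which encodes noggin, an antagonist of BMP4 and BMP2, is a gene of a single exon on chromosome 11 from 89300638 to 89302332, on the minus strand. It had 75, 62 and 84 raw counts in the DPCP libraries and 87, 94 and 143 in the control libraries, or 2.17, 1.70 and 2.71 CPM in DPCP and 2.96, 3.13 and 4.27 CPM in control skin. The groups did not overlap, though the gap between DPCP replicate 3 and control replicate 1 was small. The log2 fold change of -0.66 ± 0.24 (95% interval -1.22 to -0.11) fell just outside the threshold (edgeR adjusted p = 0.0521). It was called lower in 7 of the 13 alternatives, among which the adjusted p ran from 0.0331 to 0.180.

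Grem1, which encodes gremlin, an antagonist made mainly by fibroblasts, lies on chromosome 2 from 113746164 to 113758646, on the minus strand. It held 44.5, 59.9 and 62.2 CPM in DPCP and 50.1, 61.2 and 50.2 CPM in control libraries. The groups overlapped throughout. The log2 fold change was 0.04 ± 0.14, with a 95% interval of -0.28 to 0.37 (edgeR adjusted p = 0.817), and no alternative called it. Per kilobase, Grem1 exceeded Nog by 8.40 to 14.4 times in DPCP libraries and by 4.81 to 7.98 times in control libraries. Nog and Grem1 summed to 14.7 ± 2.39 CPM per kilobase in DPCP and 15.0 ± 1.43 in control skin. Their ratio to the summed ligands was 0.589 ± 0.107 in DPCP and 0.545 ± 0.0386 in control skin (SD, n = 3), with overlapping libraries. The sum leaves out the other antagonists described below, some of which stood higher, such as Nbl1 at 32.8 CPM per kilobase in DPCP and 58.9 in control skin.

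Bmpr1a encodes a type I receptor through which follicle stem cells receive BMP signals. It lies on chromosome 14 from 34410734 to 34503341, on the minus strand. Its DPCP libraries held 156.3, 141.2 and 148.2 CPM, and its control libraries held 176.8, 159.2 and 180.7 CPM. The groups did not overlap, but DPCP replicate 1 lay close to control replicate 2. The log2 fold change was -0.21 ± 0.09 (95% interval -0.41 to -0.01), and it was not called (edgeR adjusted p = 0.0758). The interval leaves out a fall of more than 0.41 on the log2 scale. Scaled by upper-quartile factors the adjusted p was 0.0429, and scaled by library totals alone it was 0.0320, so that the call depends on the scaling. Gm17110, on the opposite strand, shares 290 exon bases with Bmpr1a, 4.57% of its exon length, and averaged no more than 0.195 CPM in either group.

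The 3 Id genes encode helix-loop-helix proteins that lack a DNA-binding region and block other factors by pairing with them. They are standard readouts of BMP signalling, although other signals also act on them. The genes differed in direction. Id1, on chromosome 2 from 152736251 to 152737410 on the plus strand, stood at 80.6, 82.9 and 99.8 CPM in DPCP libraries, against 32.7, 33.0 and 33.3 CPM in control libraries. The control values were nearly equal, and every DPCP value lay far above them, DPCP replicate 3 highest. The means were 87.8 ± 10.5 CPM in DPCP and 33.0 ± 0.321 CPM in control skin (SD, n = 3 each), a log2 fold change of 1.41 ± 0.10 (95% interval 1.18 to 1.64, edgeR adjusted p = 2.7e-05). It ranged from 1.32 to 1.47 over the alternatives and was called in each of the 13.

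Id2, on chromosome 12 from 25093799 to 25097140 on the minus strand, held 44.7, 52.6 and 39.9 CPM in DPCP and 66.8, 58.3 and 52.0 CPM in control libraries. DPCP replicate 2 stood above control replicate 3, so the groups overlapped. The log2 fold change was -0.37 ± 0.13 (95% interval -0.66 to -0.07, edgeR adjusted p = 0.0454). This call was lost with relative log expression factors (adjusted p = 0.0506) and without control replicate 1, control replicate 2, DPCP replicate 1 or DPCP replicate 3 (edgeR adjusted p = 0.168, 0.0994, 0.104 and 0.141 in that order).

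Id3, on chromosome 4 from 136143497 to 136145755 on the plus strand, held 47.3, 41.3 and 48.1 CPM in DPCP and 47.3, 44.6 and 48.0 CPM in control libraries. The groups overlapped almost completely. Its log2 fold change was -0.03 ± 0.09, with a 95% interval of -0.24 to 0.17 (edgeR adjusted p = 0.778). The 3 Id genes together stood at 119.8 ± 8.17 CPM per kilobase in DPCP and 78.7 ± 2.89 in control skin (SD, n = 3), and Id1 made up 60.8% to 66.6% of that sum in DPCP libraries and 34.4% to 37.4% in control libraries.

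**Figure D3:**
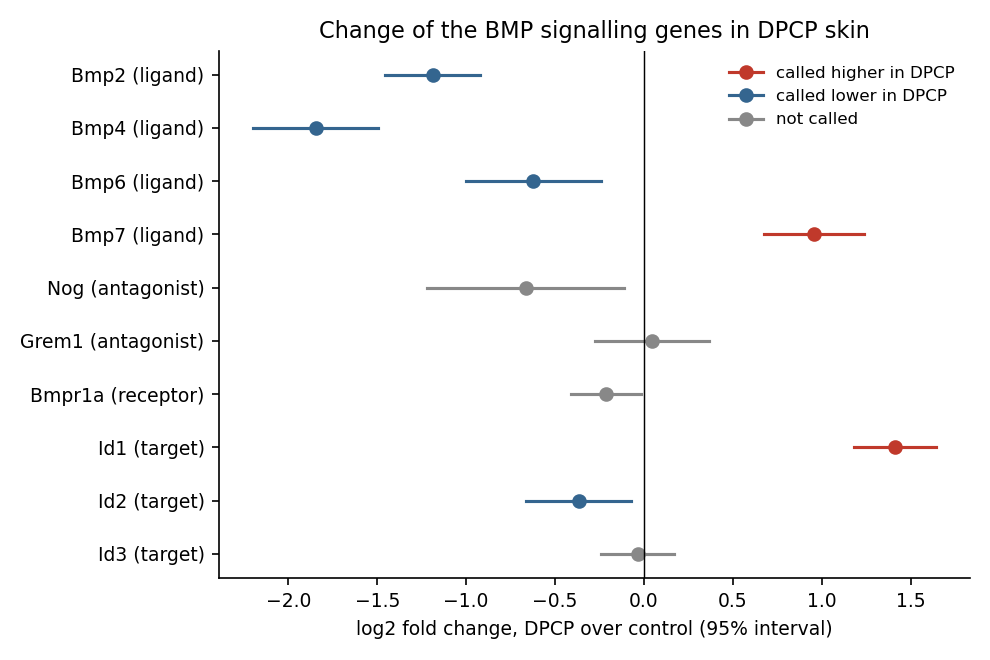
Log2 fold change of the 10 genes, DPCP over control, with 95% intervals from edgeR's quasi-likelihood fit. Bmp2, Bmp4, Bmp6 and Id2 were called lower and Bmp7 and Id1 higher, and Id2, Nog and Bmpr1a change call with the scaling.

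Ordered by CPM per kilobase in DPCP skin, Id1 led at 75.7, then came Id3 at 25.4, Bmpr1a at 23.4, Id2 at 18.8, Bmp7 at 18.1 and Grem1 at 13.4. Bmp2 at 3.12, Bmp4 at 2.56, Nog at 1.29 and Bmp6 at 1.23 followed far below. Among these neighbours the libraries overlapped between Id3 and Bmpr1a, Id2 and Bmp7, Bmp2 and Bmp4, and Nog and Bmp6. In control skin Id1 at 28.4, Bmpr1a at 27.1, Id3 at 26.0 and Id2 at 24.2 formed a run of overlapping neighbours, ahead of Grem1 at 13.0. Bmp7 at 9.34 and Bmp4 at 9.21 overlapped each other, Bmp2 stood below them at 7.12, and Nog at 2.04 and Bmp6 at 1.90 again came last. Id1 was thus apart from the other members in DPCP skin only, and Bmp7 stood above Grem1 in DPCP skin and below it in control skin.

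Promoters are shown of Bmp4 and Grem1, the members whose matched window held no annotated exon base, to set the sequence beside these values. They are the 250 bases before the RefSeq start site, read 5′ to 3′ on the gene's strand from RefSeq's GRCm38.p6. The Bmp4 window is chr14:46390670-46390919 and the Grem1 window is chr2:113758649-113758898, both on the minus strand. Capitals mark motifs that Smads are known to bind. One was the GC-rich element GGCGCC, and the other the Smad binding element CAGAC, both searched on both strands, and no matches overlapped.
Bmp4: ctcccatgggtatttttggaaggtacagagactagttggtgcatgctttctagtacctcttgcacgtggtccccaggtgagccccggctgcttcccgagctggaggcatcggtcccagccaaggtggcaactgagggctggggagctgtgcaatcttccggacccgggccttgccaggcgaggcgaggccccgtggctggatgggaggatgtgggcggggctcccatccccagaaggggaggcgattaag
Grem1: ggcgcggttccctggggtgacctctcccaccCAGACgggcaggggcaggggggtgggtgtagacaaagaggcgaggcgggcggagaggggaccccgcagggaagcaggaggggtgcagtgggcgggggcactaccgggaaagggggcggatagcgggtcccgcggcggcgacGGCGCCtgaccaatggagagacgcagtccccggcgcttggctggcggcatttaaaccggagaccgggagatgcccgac
Neither motif was in the Bmp4 window, while the Grem1 window held one GGCGCC and one CAGAC. Of 32851 RefSeq promoter windows of that length, 9.6% held GGCGCC and 42.2% held CAGAC. The Grem1 window was 72.0% G and C and the Bmp4 window 63.2%, against a median of 52.4% over all windows. The share for GGCGCC, a string of G and C alone, is thus not from windows of like make-up. A match is a string of letters and not a site shown to be bound. Windows were matched for 6 of the 10 members (Bmp4, Bmp6, Grem1, Bmpr1a, Id2 and Id3), and those with annotated exon bases are not printed.

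Beyond the members, 55 further genes of the pathway were listed, of which 45 were tested. Of these 45, 5 were called higher (11.1%, beside 22.8% of all genes tested) and 18 lower (40%, beside 23.3%), with a median log2 fold change of -0.32. Among the 3 tested ligands, 2 fell. Bmp3, which opposes other BMPs, stood at 8.47 ± 2.01 CPM in DPCP and 24.1 ± 4.19 CPM in control skin (log2 fold change -1.51 ± 0.19, edgeR adjusted p = 0.000461). Bmp8a was low throughout, at 0.706 ± 0.151 CPM in DPCP and 1.68 ± 0.332 CPM in control skin (log2 fold change -1.25 ± 0.29, edgeR adjusted p = 0.00769). The other 7 listed ligands, Bmp8b, Bmp10, Bmp15, Gdf2, Gdf5, Gdf6 and Gdf7, did not pass the filter on low counts, and none exceeded 0.129 CPM in a DPCP library or 0.433 CPM in a control library.

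Of 11 receptors and co-receptors, 1 was called higher (9.1%, beside 22.8% of all genes tested) and 5 lower (45.45%, beside 23.3%). Rgmb, a co-receptor that strengthens responses to BMP2 and BMP4, fell to 33.8 ± 5.51 CPM in DPCP skin, against 101.9 ± 8.21 CPM in control skin (log2 fold change -1.59 ± 0.13, edgeR adjusted p = 4.4e-05). Hjv, a co-receptor of skeletal muscle and liver, fell to 18.7 ± 4.16 CPM in DPCP skin, against 47.6 ± 6.13 CPM in control skin (log2 fold change -1.35 ± 0.17, edgeR adjusted p = 0.000425). All 8 skeletal muscle markers were lower as well, with a sum of 2348 to 4695 CPM in DPCP and 9057 to 11810 CPM in control libraries, and their part in the Hjv result was not tested. The 3 type II receptor genes, picked out after their values were seen, were each called lower. Bmpr2 had a log2 fold change of -0.41 ± 0.09 (edgeR adjusted p = 0.00463), Acvr2a of -0.52 ± 0.10 (0.00301) and Acvr2b of -1.31 ± 0.27 (0.00450). The type I receptor genes Acvr1, Acvrl1 and Bmpr1b were not called.

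Eng was the receptor gene called higher. It encodes endoglin, an endothelial co-receptor, and stood at 73.1, 82.7 and 90.7 CPM in DPCP libraries, against 28.9, 38.9 and 29.7 CPM in control libraries (2.53-fold, edgeR adjusted p = 0.000138). Endothelial cells are also a known site of Id1 expression. Of 8 endothelial markers, 6 were called higher (75%, beside 22.8% of all genes tested). Tek was called lower (12.5%, beside 23.3%), and Kdr was not called. Their sum was 409 to 478 CPM in DPCP libraries and 239 to 287 CPM in control libraries. The log2 fold changes of the 8 markers ran from -0.395 (Tek) to 1.499 (Tie1), with a median of 1.16, beside 1.41 for Id1. The part of the endothelial genes in the Id1 and Eng results was not tested.

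**Figure D4:**
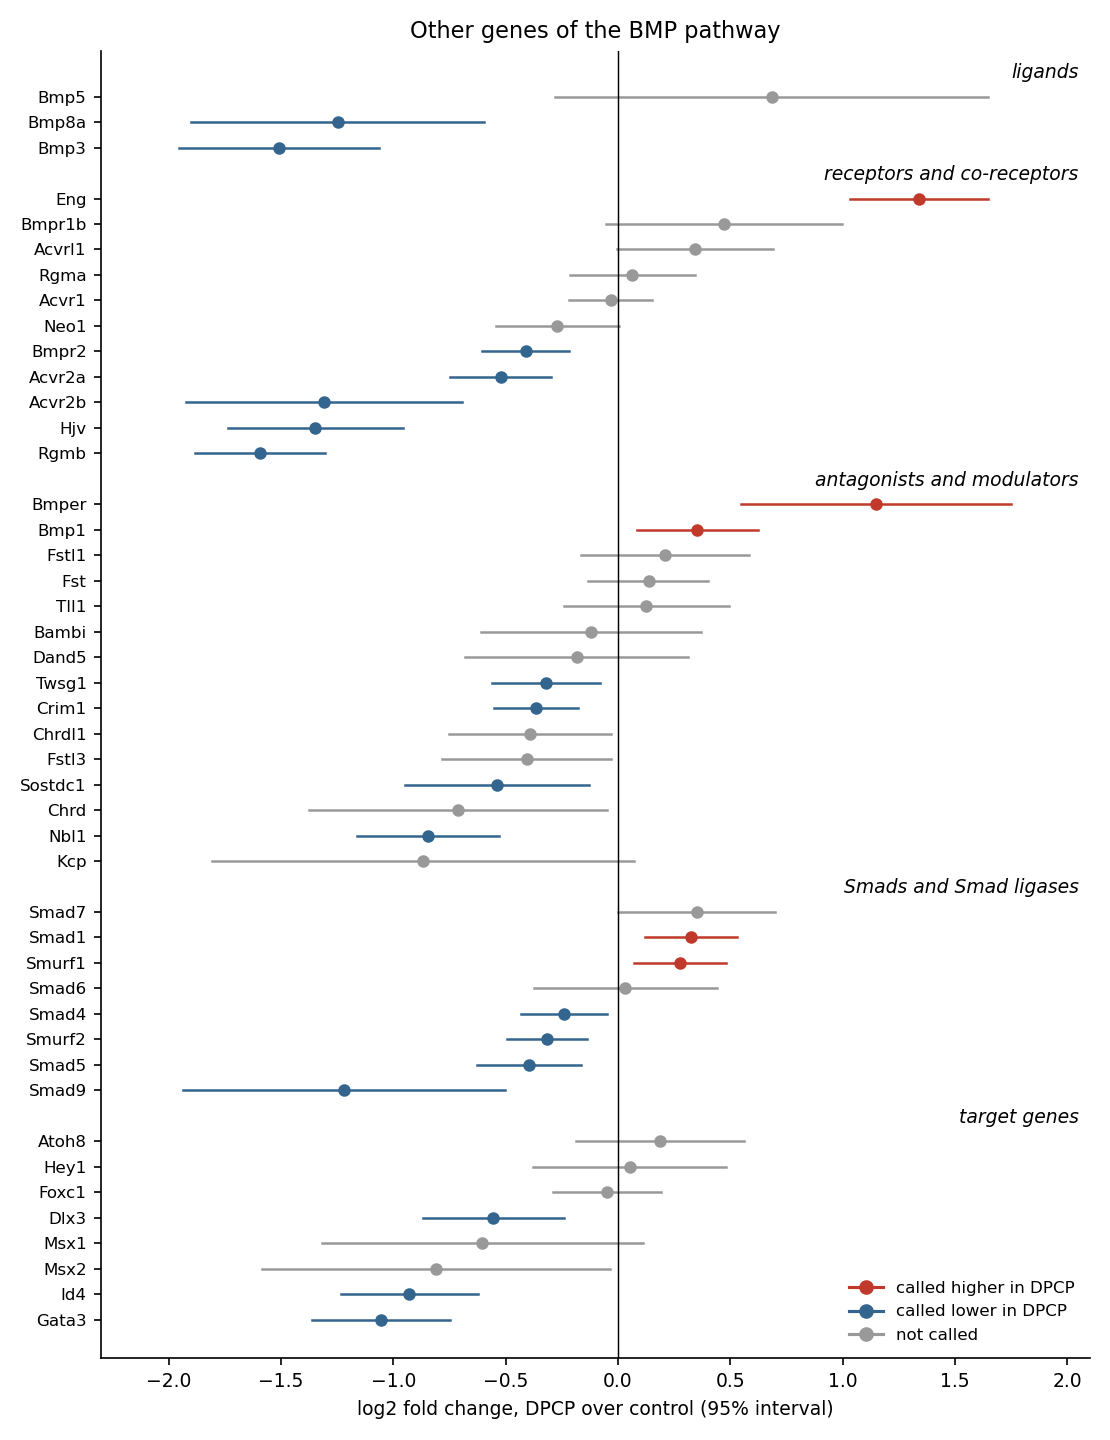
Log2 fold change, DPCP over control, with 95% intervals, of the 45 tested genes of the BMP pathway that are not members, by role. Red marks the 5 called higher, blue the 18 called lower and grey the 22 not called; the number called higher changes with the scaling, to 2 with library totals alone.

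Of 15 tested antagonists and modulators, 2 were called higher (13.3%, beside 22.8% of all genes tested). Another 4 were called lower (26.7%), near the 23.3% of all genes tested. Bmper, a secreted modulator of BMP4, stood at 9.63 ± 2.51 CPM in DPCP and 4.35 ± 1.35 CPM in control skin (log2 fold change 1.15 ± 0.26, edgeR adjusted p = 0.00765). Nbl1, an antagonist of the DAN family, fell to 66.6 ± 5.08 CPM in DPCP skin, against 119.7 ± 22.6 CPM in control skin (log2 fold change -0.84 ± 0.14, edgeR adjusted p = 0.00146). Crim1, which holds BMPs at the cell surface, had a log2 fold change of -0.36 ± 0.08 (edgeR adjusted p = 0.00702). The counts also hold Bmp1, called higher, and Twsg1 and Sostdc1, called lower. Bmp1 lost its call in 6 of the 13 alternatives, Twsg1 in 5 and Sostdc1 in 4. Chrd, Chrdl1, Fst and Bambi were not called.

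Among 8 Smads and Smad ligases, Smad1 and Smurf1 were called higher and Smad4, Smad5, Smad9 and Smurf2 lower. These are 25% higher and 50% lower, beside 22.8% and 23.3% of all genes tested. Smad4 lost its call in 9 of the 13 alternatives and Smurf1 in 5, and without control replicate 2 only Smad5 and Smurf2 were called lower. Of the Smads that BMP receptors phosphorylate, Smad5 fell by 0.40 ± 0.10 on the log2 scale (edgeR adjusted p = 0.0123). Smad9 fell by 1.22 ± 0.32 (edgeR adjusted p = 0.0130), at 1.31 ± 0.423 CPM in DPCP and 3.05 ± 0.856 CPM in control skin, and lost the call without control replicate 2 (-0.97, edgeR adjusted p = 0.0534). Smad1, named after its values were seen, had a log2 fold change of 0.32 ± 0.09 (edgeR adjusted p = 0.0174), with 39.5 ± 3.16 CPM in DPCP and 31.6 ± 0.667 CPM in control skin. The ligase gene Smurf2 had a log2 fold change of -0.32 ± 0.08 (edgeR adjusted p = 0.0106). The inhibitory Smads, which BMP signals induce in many cells, were not called, with Smad6 at 4.45 ± 0.781 CPM in DPCP and 4.34 ± 0.120 CPM in control skin and Smad7 at 12.1 ± 1.91 CPM in DPCP and 9.47 ± 0.839 CPM in control skin.

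Of 8 further target genes, none was called higher, beside 22.8% of all genes tested, and 3 were called lower (37.5%, beside 23.3%). Gata3, a factor of the inner root sheath, the epidermis and T cells, fell to 60.2 ± 10.5 CPM in DPCP skin, against 124.9 ± 13.1 CPM in control skin (log2 fold change -1.05 ± 0.14, edgeR adjusted p = 0.00045). Of 8 T cell markers, 6 were also called lower and Trac and Lck were not called, with a sum of 19.7 to 25.2 CPM in DPCP and 57.9 to 81.0 CPM in control libraries, and their part in the Gata3 result was not tested. Id4, the remaining gene of the Id family, fell to 17.1 ± 2.86 CPM in DPCP skin, against 32.5 ± 2.76 CPM in control skin (log2 fold change -0.93 ± 0.13, edgeR adjusted p = 0.000793). Dlx3 fell by 0.55 ± 0.14 on the log2 scale (edgeR adjusted p = 0.0110). Msx1, Msx2, Atoh8, Hey1 and Foxc1 were not called. Within the Id family, then, Id1 was higher, Id4 was lower and Id3 was not called. Id2 was also called lower, but its groups overlapped and it lost the call in 5 of the 13 alternatives, while Id4 kept its call in all 13.

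Markers of skin cell types, among them cells known to make these ligands, had the following values, and their part in the ligand results was not tested. Over all genes tested, 22.8% were called higher and 23.3% lower, and 2 of 8 in a list is 25%, near those shares. Of 9 bulge and germ markers, 4 were called lower (Krt15, Cd34, Lhx2 and Fgf18) and Sox9, Nfatc1, Lgr5, Tcf7l1 and Foxc1 were not called. Their sum, mostly Krt15, was 954 to 1275 CPM in DPCP and 2779 to 2929 CPM in control libraries. Of 8 tested dermal papilla markers, Sox18 and Crabp1 were called higher and none lower, with a sum of 88.9 to 110 CPM in DPCP and 50.9 to 63.4 CPM in control libraries. Most of that difference came from Crabp1, at 39.9 CPM in DPCP and 10.2 CPM in control skin, and from Sox18, also an endothelial gene, at 18.6 CPM in DPCP and 7.92 CPM in control skin. Corin and Sox2 each averaged under 1 CPM in both groups. The fibroblast sum overlapped, at 6826 to 8346 CPM in DPCP and 5614 to 7936 CPM in control libraries, with 2 of 8 called higher and 1 lower. The adipocyte sum overlapped too, at 1135 to 1282 CPM in DPCP and 986 to 1285 CPM in control libraries, with Fabp4 and Lipe called higher and Adipoq and Retn lower. Basal keratinocyte markers summed to 25380 to 29190 CPM in DPCP and 11990 to 14630 CPM in control libraries, with 3 of 8 called higher and 2 lower. Most of that difference was Krt14 alone, at 17430 CPM in DPCP and 4776 CPM in control skin, and the list's median log2 fold change was 0.24. Col17a1 and Dst were called lower, and Krt5, Trp63 and Lamb3 were not called, while 5 of 8 differentiation markers were lower and 1 higher. Of 8 neutrophil markers, 7 were called higher and 1 lower (sum 526 to 1370 CPM in DPCP and 125 to 153 CPM in control libraries). Of 8 macrophage markers, 2 were called higher (25%, beside 22.8% of all genes tested) and 6 were not called. The macrophage sum was 2323 to 3953 CPM in DPCP and 1231 to 2128 CPM in control libraries. Within it Mrc1 stood at 874 CPM in DPCP and 331 CPM in control skin.

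**Figure D5:**
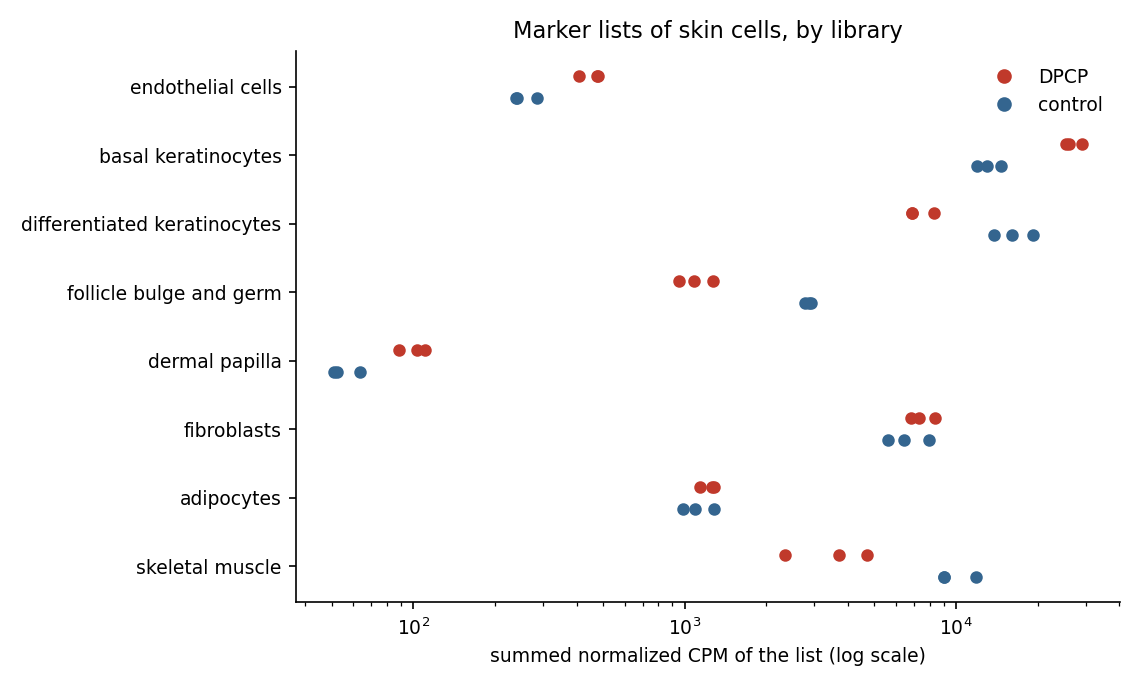
Summed normalized CPM of 8 marker lists in each library, on a log axis, with the DPCP libraries (red) above the control libraries (blue). Fibroblast and adipocyte sums overlap between the groups, while DPCP libraries lie above control libraries for endothelial, basal keratinocyte and dermal papilla lists and below them for differentiated keratinocyte, bulge and skeletal muscle lists. The sums are led by few genes, among them Krt14 (basal), Krt15 (bulge), and Crabp1 and Sox18 (dermal papilla).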

How the data were processed

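RNA of 3 DPCP and 3 control libraries of whole mouse skin was sequenced. Per the labels' protocols, pieces of skin were stored in RNAlater, TRIzol gave the RNA, and stranded polyadenylated libraries were read in pairs. The deposited values are raw read counts per gene, made by the authors, per the file headers, with featureCounts 1.6.2 and release 102 of Ensembl's GRCm38 annotation. The deposited gene length was used for CPM per kilobase. The command set no strand or pair option, so mates were counted singly and antisense reads cannot be separated. Also used, per the submitters' processing notes, were HISAT2 2.2.1 on mm10, Trimmomatic 0.36, DESeq2 1.34.0 and StringTie 2.2.1.

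Counts were tested over the whole table with edgeR 4.0.16 (quasi-likelihood F-test, TMM, filterByExpr) in R 4.3.3, with Benjamini-Hochberg adjustment and calls under 0.05. Normalized CPM uses TMM-scaled library sizes. SE is the unshrunken log2 fold change over the square root of F. The fit was tested on simulated data. Of the 55487 identifiers, 55227 had a GENCODE M21 symbol. No 2 libraries were copies, since chi-square per gene was 19.9 or more in every pair. The members and gene lists were chosen with earlier results of these data known. Named beyond the members were up to 3 called genes of each list with the smallest p. Alternatives were other scalings and filters, DESeq2 1.42.0, a replicate block and each library left out. The promoter windows of Bmp2, Bmp7, Nog and Id1, and proteins, were not used here. A further item of the lists is not reported here.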

Additional observations from a re-analysis of the deposited data

How the results depend on the processing

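The 13 alternatives were other scalings and count filters, DESeq2, a replicate block and each of the 6 libraries left out. Over them, 648 of 714 values of single genes stayed called or stayed not called, and no called gene reversed. Some genes that were not called changed sign, such as Grem1, whose log2 fold change ran from -0.037 to 0.186. Members called higher numbered 2 throughout. Members called lower numbered 3 with relative log expression factors and 6 with upper-quartile factors or library totals alone, and ranged from 2 to 4 when a library was left out, 2 without control replicate 2, where Bmp6 and Id2 lost their calls. Other pathway genes called higher fell to 2 with library totals alone (Eng and Bmper), which moved the median of all genes by -0.075 on the log2 scale, and ranged from 3 to 8 with a library left out, 3 without control replicate 1, control replicate 3, DPCP replicate 2 or DPCP replicate 3, and 8 without DPCP replicate 1. The cause was not tested.

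Replicate numbers paired the libraries weakly at most: deviations of same-numbered libraries correlated at 0.046, 0.027 and 0.112. The same number was the best match for DPCP replicates 1 and 3, while DPCP replicate 2 correlated best with control replicate 1 (0.099). With the numbers as a block, 5 members were called lower, Nog being added (edgeR adjusted p = 0.0331). Nog had 62 to 143 counts in a library, the fewest of the members.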
